A study of Homo sapiens with 6 samples.

Results

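The genes described here code for the nuclear-encoded subunits of respiratory complex I. They were found by symbol, as NDUF followed by A, B, C, S or V and a number, with NDUFAB1 added, which gave 38 of the 26255 gene symbols in the deposited tables. All 38 passed the filter on low values that decided which 12203 genes were tested. NDUFA4 keeps its NDUF name although its protein is now counted with complex IV, so 37 members are complex I genes in the strict sense. The 7 subunits that the mitochondrial genome codes for were not analysed here. RNA sequencing was done on HCT116, an established human colon cancer cell line, in 3 groups of 2 libraries each: parent cells, siLINC01534-1 knockdown cells and siLINC01534-2 knockdown cells. Both small interfering RNAs (siRNAs) were designed against the long non-coding RNA LINC01534, and the comparison asked how the cells' RNA differed after its silencing. All groups share the HCT116 background. The labels do not say that the parent cells were transfected, and libraries with a negative control siRNA were not analysed here, so transfection itself and the loss of LINC01534 cannot be told apart. The time from transfection to RNA extraction is not given in the sources used here. Nothing in the labels says that the 2 libraries of a group came from separate cultures, so the p-values measure only the spread between these libraries, which may be technical.

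Complex I takes electrons from NADH in the mitochondrial matrix, passes them along flavin and iron-sulfur clusters to ubiquinone, and pumps protons across the inner membrane. It is shaped like an L. The matrix arm holds the NADH-oxidising N module and the ubiquinone-reducing Q module, both built from core subunits that bacteria also have, and the membrane arm holds the proton pumps. Around the core sits a shell of accessory subunits that bacteria lack, which are needed for assembly or stability. NDUFAB1, the mitochondrial acyl carrier protein, is bound in the complex and also serves mitochondrial fatty acid synthesis and iron-sulfur cluster assembly outside it. In dividing colon cancer cells complex I is known for regenerating NAD+ and so for keeping aspartate synthesis running.

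LINC01534 itself was near the limit of detection. Its level was 0.285 and 0.571 FPKM (mapped fragments divided by transcript length and library size) in parent, 0 and 0.283 in the libraries labelled siLINC01534-1, and 0.660 and 0.551 in those labelled siLINC01534-2. The latter group thus did not lie below parent, and group names follow the labels. By quantitative PCR in HCT116 cells, the authors report less LINC01534 with each siRNA than with a negative control siRNA. The depth, estimated from the steps between low FPKM values, was 8690000 to 10400000 reads per library. All 6 epithelial markers examined (EPCAM, KRT8, KRT18, KRT19, CDH1, CLDN4) were at 10 FPKM or more in every library. Their summed level was 3523 to 3585 FPKM in parent cells, 3029 to 3035 with siLINC01534-1 and 3429 to 3606 with siLINC01534-2. The 5 blood cell markers were all under 1 FPKM, with CD3E at 0. Of the 6 fibroblast and endothelial markers 5 were under 1 FPKM, and COL1A1 was at 3.02 to 5.79 FPKM. The sum of that list was 3.10 to 3.16 FPKM in parent cells, 5.39 to 6.03 with siLINC01534-1 and 3.86 to 4.37 with siLINC01534-2. The part of either marker list in the results was not tested.

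Promoter sequences were available for 32 of the 38 members, from RefSeq on GRCh38.p14, each with 250 bases before and 50 after an annotated start. The 5 shown are those of members whose RNA passed the test against parent with each siRNA and that had an entry. Each line is a 100-base stretch upstream of the start, 5′ to 3′ on the gene's strand. Capitals mark matches, on either strand, to the core motifs of NRF1 (GCGCATGC) and of ETS factors such as GABP (CCGGAAG), which are known regulators of respiratory chain genes.
NDUFAB1, chr16:23596317-23596416, minus strand: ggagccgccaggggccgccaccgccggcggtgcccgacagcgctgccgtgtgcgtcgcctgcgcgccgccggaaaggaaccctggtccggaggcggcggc
NDUFB10, chr16:1959438-1959537, plus strand: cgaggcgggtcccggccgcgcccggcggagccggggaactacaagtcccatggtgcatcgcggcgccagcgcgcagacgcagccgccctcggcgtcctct
NDUFS3, chr11:47578954-47579053, plus strand: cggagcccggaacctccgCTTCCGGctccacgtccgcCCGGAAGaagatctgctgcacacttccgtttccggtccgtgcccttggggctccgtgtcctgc
NDUFS7, chr19:1383807-1383906, plus strand: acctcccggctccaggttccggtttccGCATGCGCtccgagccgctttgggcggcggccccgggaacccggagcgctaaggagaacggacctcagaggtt
NDUFB4, chr3:120596156-120596255, plus strand: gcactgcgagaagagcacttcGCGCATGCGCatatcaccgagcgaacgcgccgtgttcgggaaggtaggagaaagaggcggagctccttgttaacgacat

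In these stretches NDUFS3 had 2 ETS matches, NDUFS7 1 NRF1 match, and NDUFB4 an NRF1 match that reads the same on both strands. NDUFAB1 and NDUFB10 held none of these letters. Over the whole windows, NRF1 letters were found in 6 of the 32 members (18.8%), against 6.63% of 9009 tested genes with an entry. The letters of YY1 (AAGATGGCG), a further regulator of respiratory genes, were found in 6 members (18.8%) against 5.08%, in NDUFA6, NDUFA7, NDUFA9, NDUFB8, NDUFS4 and NDUFS7. In those 6 the match lay on the gene's own strand and began 11 to 26 bases into the transcribed part. ETS letters were found in 5 members (15.6%) against 23.3%. For each motif, a gene with several annotated starts counted if any of its windows matched. Not every window did so for NDUFA5 (NRF1), NDUFB8 (YY1) and NDUFS1 (ETS). Of the 32 members 17 held none of the 3 motifs. A match is a description of the sequence and was not tied to binding.

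The subunits stand in the complex in near equal numbers, but the FPKM of their RNA differed widely. Parent means ran from 9.57 FPKM for NDUFA5 to 457.5 FPKM for NDUFS5, a 47.8-fold range. FPKM divides by transcript length, so the range also depends on the length taken for each gene. The annotated transcript used here has 5496 nt for NDUFA5 and 495 nt for NDUFS5. With these lengths, the reads estimated for parent replicate 1 were 521 and 1372. The part of transcript length in the range was not tested. In parent, 8 members had a mean above 200 FPKM: NDUFS5, NDUFB9, NDUFA13, NDUFB10, NDUFA1, NDUFA3, NDUFAB1 and NDUFB8. All of these but NDUFAB1 are accessory subunits of the membrane arm. At the other end, NDUFA5, NDUFV3, NDUFC2 and NDUFA10 were the 4 members under 30 FPKM. The core subunits lay in between, from 36.4 ± 0.549 FPKM (SD, n = 2) for NDUFS1 to 136.6 ± 8.24 FPKM (SD, n = 2) for NDUFV2. Replicates were close: the median coefficient of variation between the 2 libraries was 3.11% in parent, 3.70% with siLINC01534-1 and 2.65% with siLINC01534-2, and the largest was 14.7% (NDUFA3 with siLINC01534-2). Summed over the members, the level was 4992 ± 102 FPKM for parent, 4571 ± 29.9 for siLINC01534-1 and 4688 ± 161 for siLINC01534-2 (SD, n = 2 each), and both siRNA groups lay below both parent libraries.

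**Figure D1:**
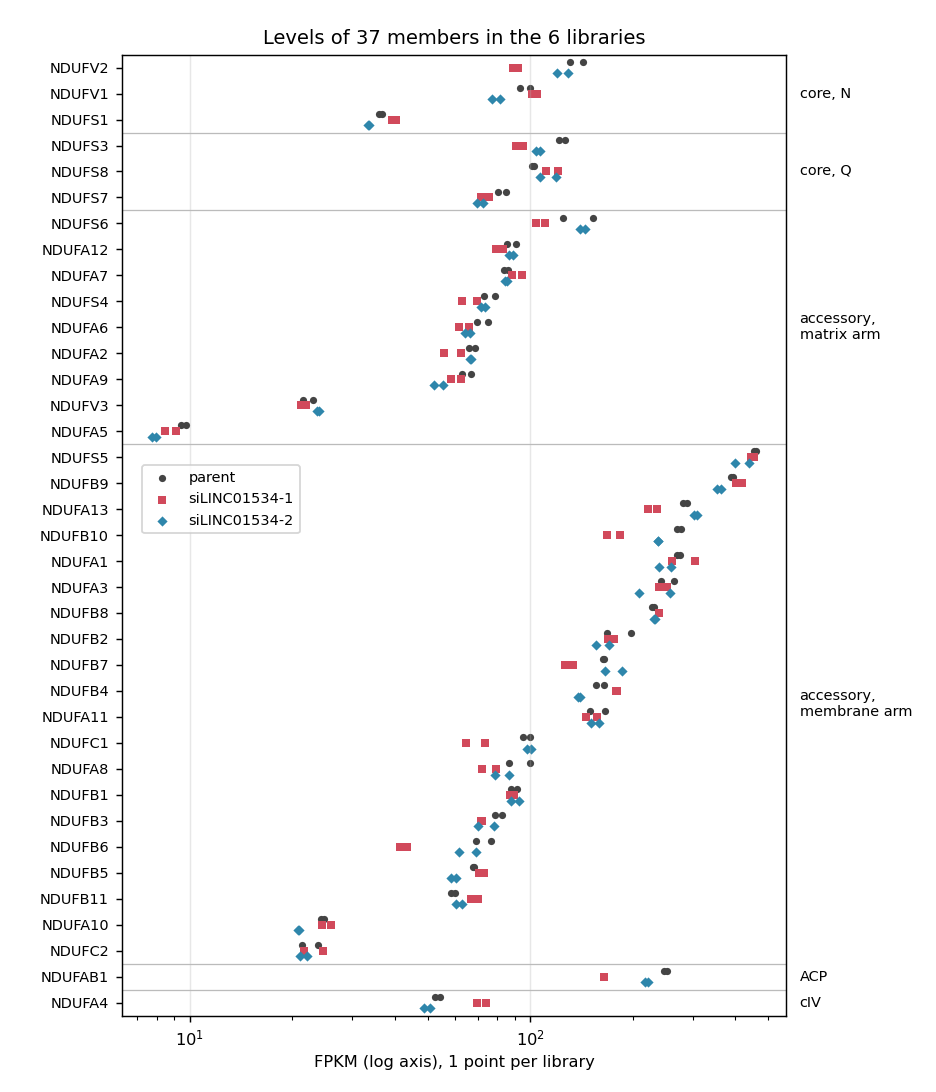
FPKM of 37 of the 38 members on a log axis, 1 point per library and 2 libraries per group, with members ordered by place in the complex (core N and Q modules, accessory matrix arm, accessory membrane arm, ACP for NDUFAB1, cIV for NDUFA4) and by parent mean. Levels spanned 7.73 to 460 FPKM, and within a member the 3 groups lay much closer together than the members did.

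With siLINC01534-1, 14 members fell, 5 rose and 19 did not pass the test (limma, adjusted p under 0.05 over all 12203 genes). That made 50% of the members, beside 46.3% of all genes tested, so the share itself was near the background. By direction, the background was 24.5% lower and 21.8% higher. With siLINC01534-2, 11 members fell, none rose and 27 did not pass, 28.9% of the members beside 22.8% of all genes, with 11.8% of all genes lower and 11.1% higher. Both comparisons used the same parent libraries. Changes were small: no member passed 2-fold with either siRNA. The median log2 fold change of the members was -0.066 with siLINC01534-1 and -0.12 with siLINC01534-2, beside medians of 0.00031 and 0.0018 over all genes tested. Both siLINC01534-1 libraries lay below both parent libraries for 19 members and above them for 11, where 38.3% and 37.5% of all genes did so. With siLINC01534-2 the counts were 19 and 6, beside 32.7% and 32.1%.

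How many of these calls held depended on single libraries. With either siRNA, the share called over all genes was also lower in every fit without 1 library. With siLINC01534-1 the share of members called, above that of all genes with all libraries, lay below it in each of these fits. With siLINC01534-2 it did so without either parent or either siLINC01534-2 library. Whether members lose calls more readily than other genes was not tested. Of the 19 calls with siLINC01534-1, 8 held without any 1 of the 6 libraries, and the number that fell was 8 to 10 in those fits. Of the 11 calls with siLINC01534-2, 1 held throughout. The number that fell was 2 without parent replicate 1 or without parent replicate 2, and 1 without siLINC01534-2 replicate 1 or without siLINC01534-2 replicate 2. The share called over all genes also dropped in those 4 fits, to between 7.02% and 9.79%.

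**Figure D2:**
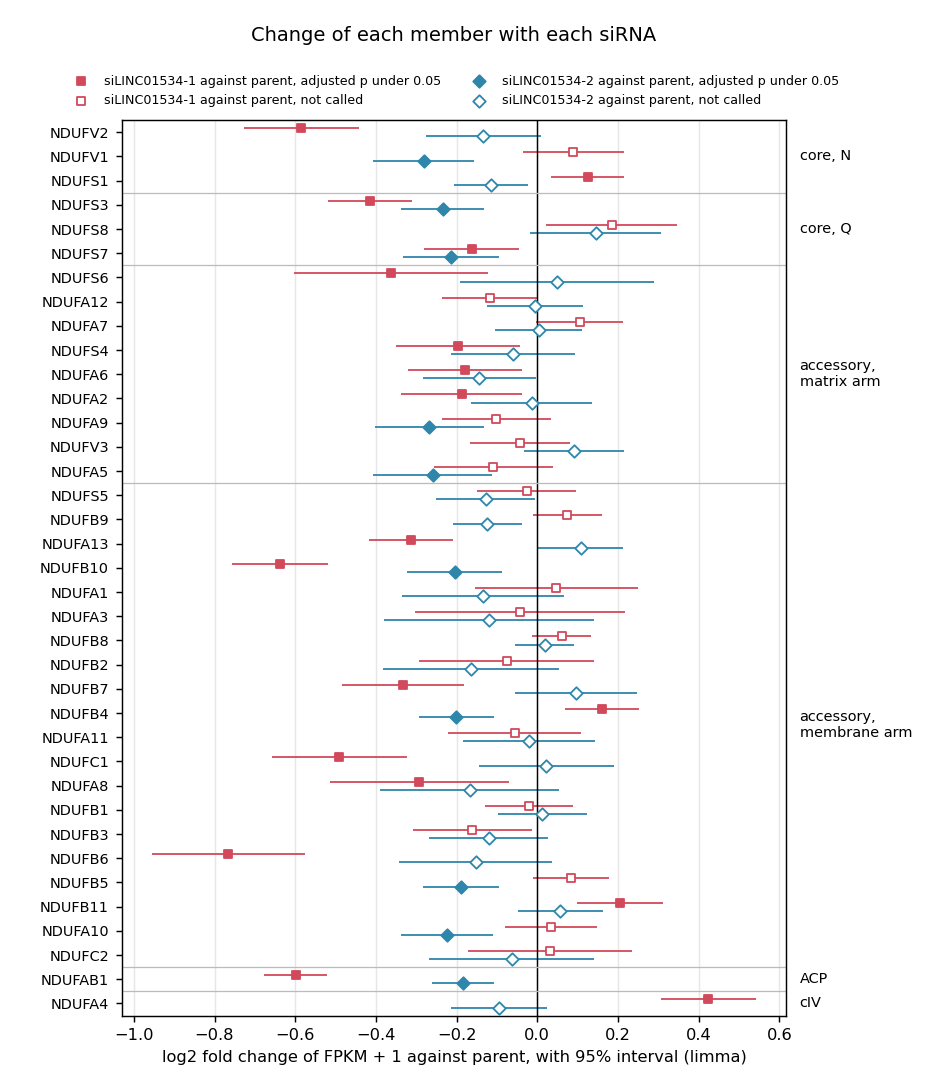
Log2 fold change of FPKM + 1 against parent for 37 of the 38 members with each siRNA, with 95% intervals from limma (3 groups of 2 libraries); filled symbols passed an adjusted p of 0.05 over all genes, and sections are as in the plot of levels. NDUFB6, NDUFB10, NDUFAB1 and NDUFV2 lay furthest to the left with siLINC01534-1, and no filled symbol lay to the right of 0 with siLINC01534-2.

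The 3 core subunits of the N module, the site of NADH oxidation, went separate ways. NDUFV2 (chr18:9102628-9134343 on GRCh37), which carries the iron-sulfur cluster next to the flavin, was at 142 and 131 FPKM in parent cells, 89.2 and 92.0 with siLINC01534-1, and 129 and 120.0 with siLINC01534-2. The siLINC01534-1 libraries stood below all 4 others. NDUFV2 fell by 0.59 on the log2 scale with siLINC01534-1 (SE 0.057, adjusted p = 0.00094). With siLINC01534-2 its log2 fold change was -0.13 (SE 0.057, adjusted p = 0.15), and the difference between the siRNAs was -0.45 (adjusted p = 0.0027).

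NDUFV1 (chr11:67373124-67380025 on GRCh37), which binds NADH and the flavin, showed the other order. It was at 93.2 and 100.1 FPKM in parent cells, 105 and 101 with siLINC01534-1, and 81.4 and 77.3 with siLINC01534-2. It fell by 0.28 with siLINC01534-2 (SE 0.050, adjusted p = 0.017), while its log2 fold change with siLINC01534-1 was 0.089 (adjusted p = 0.20). The fall was not called without parent replicate 2, without siLINC01534-2 replicate 1 or without siLINC01534-2 replicate 2, with adjusted p of 0.077, 0.052 and 0.085. NDUFS1 (chr2:206979541-207024233), the largest core subunit and a carrier of iron-sulfur clusters, was at 35.98 and 36.8 FPKM in parent cells, 39.3 and 40.2 with siLINC01534-1, and 33.7 and 33.3 with siLINC01534-2, with no overlap between the groups. It rose by 0.12 with siLINC01534-1 (SE 0.037, adjusted p = 0.038), a call lost without any 1 of the 6 libraries (adjusted p 0.058 to 0.13). With siLINC01534-2 its log2 fold change was -0.11 (adjusted p = 0.078). NDUFV1 and NDUFS1 differed between the siRNAs by 0.37 (adjusted p = 0.0034) and 0.24 (adjusted p = 0.0051).

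The core subunits of the Q module pass electrons to ubiquinone. NDUFS3 (chr11:47586888-47606114 on GRCh37), a scaffold of the Q module without a redox centre, whose promoter held the paired ETS letters, was at 121 and 127 FPKM in parent cells, 95.1 and 90.7 with siLINC01534-1, and 104 and 106 with siLINC01534-2. Both siRNA groups lay below parent. It fell by 0.41 with siLINC01534-1 (SE 0.041, adjusted p = 0.0010). With siLINC01534-2 it fell by 0.23 (SE 0.041, adjusted p = 0.016), which was not called without any 1 of the 4 parent and siLINC01534-2 libraries (adjusted p 0.055 to 0.082). The difference between the siRNAs was -0.18 (adjusted p = 0.020), not called without siLINC01534-1 replicate 2, siLINC01534-2 replicate 1 or siLINC01534-2 replicate 2 (adjusted p 0.061 to 0.088).

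NDUFS7 (chr19:1383526-1395588), which holds the last iron-sulfur cluster before ubiquinone, was at 80.3 and 84.8 FPKM in parent cells, 75.6 and 71.7 with siLINC01534-1, and 72.5 and 69.6 with siLINC01534-2. It fell by 0.16 (SE 0.048, adjusted p = 0.037) and by 0.21 (SE 0.048, adjusted p = 0.031), both calls lost without any 1 of the 6 libraries (adjusted p 0.056 to 0.16 and 0.053 to 0.13), and the siRNAs differed by 0.050 (95% interval -0.07 to 0.17). NDUFS8 (chr11:67798084-67804111), which carries iron-sulfur clusters, was the core subunit with higher values in both siRNA groups: 101 and 103 FPKM in parent cells, 121 and 111 with siLINC01534-1, and 119 and 107 with siLINC01534-2. Its log2 fold changes were 0.18 (SE 0.065, adjusted p = 0.066) and 0.15 (SE 0.065, adjusted p = 0.17), past the threshold in neither; without siLINC01534-2 replicate 1 or without siLINC01534-2 replicate 2 the first was called (adjusted p = 0.048 in both fits).

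NDUFAB1 (chr16:23592335-23607637) had the smallest adjusted p of the members. It was at 247 and 253 FPKM in parent cells, 164 and 165 with siLINC01534-1, and 217 and 222 with siLINC01534-2. The 3 groups stood apart in steps well above the spread within them. It fell by 0.60 with siLINC01534-1 (SE 0.031, adjusted p = 0.00014), from a mean of 249.7 ± 4.03 to 164.5 ± 0.187 FPKM (SD, n = 2 each). With siLINC01534-2 it fell by 0.18 (SE 0.031, adjusted p = 0.014). That second call was lost without any 1 of the 4 parent and siLINC01534-2 libraries (adjusted p 0.054 to 0.070, log2 fold change -0.20 to -0.17). The siRNAs differed by -0.41 (adjusted p = 0.00053).

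**Figure D3:**
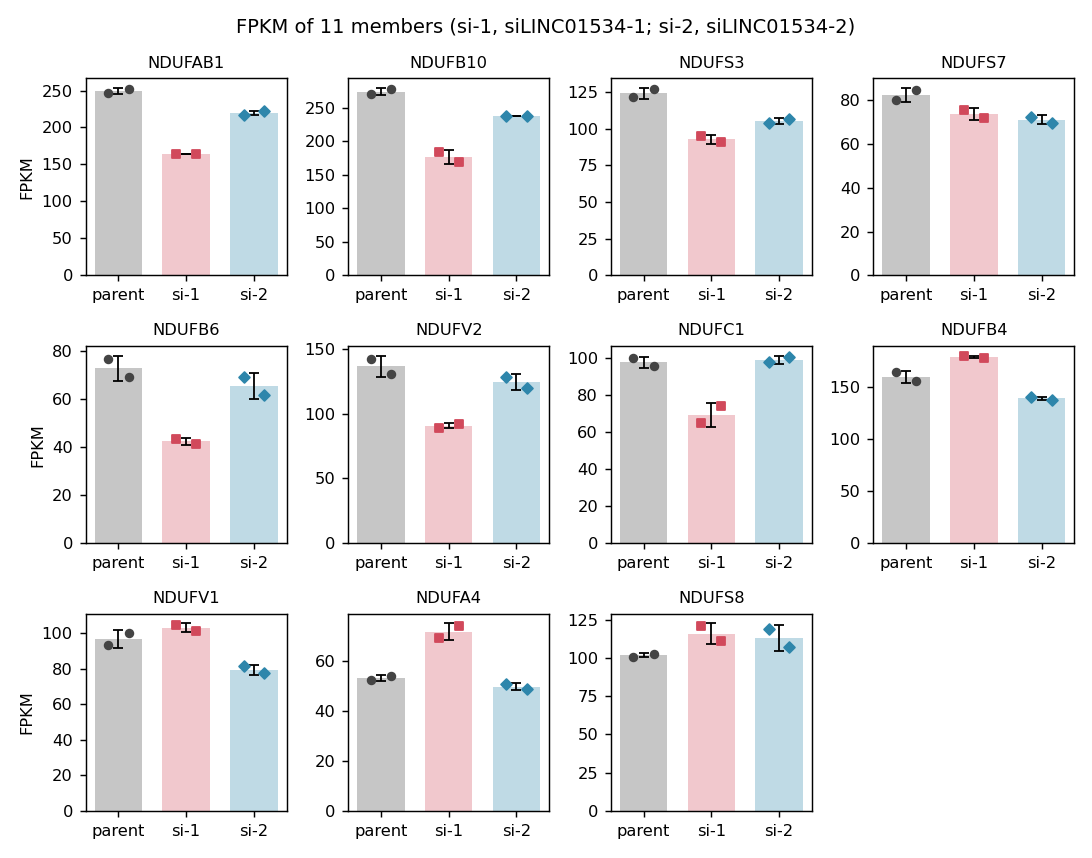
FPKM of 11 members per library (points), with group means (bars from 0) and SD (error bars, n = 2); si-1 and si-2 stand for siLINC01534-1 and siLINC01534-2. NDUFAB1, NDUFB10, NDUFB6, NDUFV2 and NDUFC1 were lowest with si-1, whereas NDUFB4 and NDUFV1 were lowest with si-2.

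The accessory subunits of the membrane arm were the largest group, with 20 members. With siLINC01534-1, 6 fell, 2 rose and 12 did not pass; with siLINC01534-2, 4 fell, none rose and 16 did not pass. That was 40% and 20% of them, beside 46.3% and 22.8% of all genes. NDUFB6 (chr9:32552997-32573160), at the far part of the arm, changed most of all members. It was at 76.6 and 69.2 FPKM in parent cells, 43.4 and 41.4 with siLINC01534-1, and 69.4 and 61.7 with siLINC01534-2. The siLINC01534-2 libraries overlapped parent, and the siLINC01534-1 libraries lay well below both. It fell by 0.77 with siLINC01534-1 (SE 0.076, adjusted p = 0.00100), and its log2 fold change with siLINC01534-2 was -0.15 (adjusted p = 0.21). The siRNAs differed by -0.61 (SE 0.076, adjusted p = 0.0026).

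NDUFB10 (chr16:2009539-2011976), a disulfide-bonded subunit on the outer face of the arm, was at 269.9 and 278 FPKM in parent cells, 183 and 168 with siLINC01534-1, and 237 and 238 with siLINC01534-2. It fell by 0.64 with siLINC01534-1 (SE 0.048, adjusted p = 0.00039). With siLINC01534-2 it fell by 0.20 (SE 0.048, adjusted p = 0.034), not called without any 1 of the 4 parent and siLINC01534-2 libraries (adjusted p 0.10 to 0.145). The order parent, siLINC01534-2, siLINC01534-1 was thus the one seen for NDUFAB1, and the siRNAs differed by -0.43 (adjusted p = 0.0017). NDUFC1 (chr4:140188034-140223705), a small single-span subunit, was at 99.7 and 95.3 FPKM in parent cells, 64.7 and 73.7 with siLINC01534-1, and 97.5 and 100.6 with siLINC01534-2. It fell by 0.49 with siLINC01534-1 (SE 0.067, adjusted p = 0.0029), while its log2 fold change with siLINC01534-2 was 0.022 (95% interval -0.15 to 0.19), and the siRNAs differed by -0.51 (SE 0.067, adjusted p = 0.0031).

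NDUFA13, also known as GRIM-19, and NDUFB7, which faces the intermembrane space, had parent levels of 280.1 and 289 FPKM and of 164 and 165 FPKM. With siLINC01534-1 they were at 236 and 222 FPKM and at 134 and 127 FPKM, and fell by 0.31 (adjusted p = 0.0027) and 0.33 (adjusted p = 0.0077). With siLINC01534-2 both libraries of each gene lay above both parent libraries, with log2 fold changes of 0.11 (adjusted p = 0.12) and 0.096 (adjusted p = 0.30). The siRNAs differed by -0.42 (adjusted p = 0.0013) and -0.43 (adjusted p = 0.0039). The fall of NDUFB7 was not called without siLINC01534-1 replicate 2 (adjusted p = 0.054). NDUFA8, a further intermembrane space subunit, fell by 0.29 with siLINC01534-1 (adjusted p = 0.042), but was called in 1 of the 6 leave-one-out fits, that without parent replicate 1, and its adjusted p reached 0.19 over the alternatives. Its log2 fold change was -0.19 without parent replicate 2.

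NDUFB4 (chr3:120315175-120321354), a membrane arm subunit whose promoter held the NRF1 letters, was at 164 and 156 FPKM in parent cells, 180.0 and 178 with siLINC01534-1, and 140.3 and 138 with siLINC01534-2, with no overlap among the 3 groups. It rose by 0.16 with siLINC01534-1 (adjusted p = 0.018) and fell by 0.20 with siLINC01534-2 (adjusted p = 0.019). The siRNAs differed by 0.36 (SE 0.037, adjusted p = 0.0014), and by 0.35 to 0.37 over the leave-one-out fits. Each change against parent was lost in 3 of 6 leave-one-out fits: the rise without parent replicate 2 or either siLINC01534-1 library, the fall without parent replicate 1 or either siLINC01534-2 library (adjusted p up to 0.079 and 0.088). NDUFB4 has 12 annotated pseudogene copies, and how reads shared with them were counted is not given in the sources used here.

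NDUFB11, an X-linked membrane arm subunit, rose by 0.20 with siLINC01534-1 (adjusted p = 0.012), from 58.4 and 60.2 to 66.8 and 70.2 FPKM, a call lost without parent replicate 1 or without siLINC01534-1 replicate 2 (adjusted p up to 0.065). NDUFB5 and NDUFA10, the latter with a nucleoside kinase fold, fell by 0.19 (adjusted p = 0.022) and 0.22 (adjusted p = 0.024) with siLINC01534-2. Both calls were lost without any 1 of the 4 parent and siLINC01534-2 libraries (adjusted p up to 0.095 and 0.11). NDUFB9, one of the most abundant members at 388 and 393 FPKM in parent, passed the test only between the siRNAs, with 403 and 419 FPKM with siLINC01534-1 against 362 and 354 with siLINC01534-2 (log2 difference 0.20, adjusted p = 0.0076).

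Of the 9 accessory subunits of the matrix arm, 4 fell with siLINC01534-1 and 2 with siLINC01534-2, and none rose. These 44.4% and 22.2% were near the 46.3% and 22.8% of all genes. NDUFS6, which is needed to attach the N module, had the largest of these falls, 0.36 (SE 0.096, adjusted p = 0.028), with 110.3 and 104 FPKM with siLINC01534-1 beside 125 and 153 in parent. Its parent libraries lay far apart: the log2 fold change was -0.51 without parent replicate 1 and -0.22 without parent replicate 2. The call was lost without either siLINC01534-1 or either siLINC01534-2 library (adjusted p up to 0.14). NDUFS4, known from Leigh syndrome, NDUFA2 and NDUFA6, an LYR-motif protein that binds an acyl carrier protein, fell by 0.20, 0.19 and 0.18 with siLINC01534-1, with adjusted p of 0.047, 0.049 and 0.046. These calls sat at the threshold. Without siLINC01534-1 replicate 1 the log2 fold change was -0.12 for NDUFS4 and -0.11 for NDUFA2. NDUFA6 was called in none of the 6 leave-one-out fits, and NDUFS4 and NDUFA2 were called only without siLINC01534-1 replicate 2, with adjusted p of up to 0.20 and 0.19 over the alternatives.

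NDUFA9 and NDUFA5, which lie against the Q module, passed with siLINC01534-2. NDUFA9 was at 63.2 and 66.9 FPKM in parent cells, 58.6 and 62.6 with siLINC01534-1, and 55.3 and 52.3 with siLINC01534-2, and fell by 0.27 (SE 0.054, adjusted p = 0.023). It was not called without any 1 of the 4 parent and siLINC01534-2 libraries (adjusted p 0.064 to 0.11). NDUFA5 was at 9.74 and 9.39 FPKM in parent cells, 9.13 and 8.47 with siLINC01534-1, and 7.73 and 7.93 with siLINC01534-2, and fell by 0.26 (SE 0.059, adjusted p = 0.032), a call lost without any 1 of the 6 libraries (adjusted p 0.053 to 0.14). NDUFA5 also has 12 annotated pseudogene copies.

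NDUFA4, the member that belongs to complex IV, rose more than any other. It was at 52.5 and 54.1 FPKM in parent cells, 69.5 and 74.3 with siLINC01534-1, and 50.9 and 48.9 with siLINC01534-2. It rose by 0.42 with siLINC01534-1 (SE 0.047, adjusted p = 0.0015), and its log2 fold change with siLINC01534-2 was -0.095 (adjusted p = 0.21). The siRNAs differed by 0.52 (SE 0.047, adjusted p = 0.00098). Without it, the counts with siLINC01534-1 were 4 higher and 14 lower of 37.

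The remaining 13 members passed in no comparison: NDUFA1, NDUFA3, NDUFA7, NDUFA11, NDUFA12, NDUFB1, NDUFB2, NDUFB3, NDUFB8, NDUFC2, NDUFS5, NDUFS8 and NDUFV3. Their log2 fold changes ran from -0.16 to 0.18 with siLINC01534-1 and from -0.16 to 0.15 with siLINC01534-2. The outermost bounds of their 95% intervals were -0.31 and 0.35 with the former and -0.38 and 0.31 with the latter, so changes of that size were within the error for the noisiest of them. NDUFB8, a membrane arm subunit often used as a marker of assembled complex I, was the most tightly measured member, at 228 and 231 FPKM in parent cells, 239.6 and 239 with siLINC01534-1, and 233 and 232 with siLINC01534-2.

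The test of the difference between the siRNAs does not use the parent values, though the spread it is judged by does. It called 18 members, 47.4% beside 41.8% of all genes tested, 9 of them higher with siLINC01534-1 and 9 higher with siLINC01534-2, beside 19.5% and 22.3% of all genes. Of these calls 15 held without any 1 of the 6 libraries. Members higher with siLINC01534-1 included NDUFA4, NDUFV1, NDUFB4, NDUFB5, NDUFA10, NDUFS1, NDUFB9 and NDUFB11. Those higher with siLINC01534-2 were NDUFB6, NDUFC1, NDUFV2, NDUFB10, NDUFB7, NDUFA13, NDUFAB1, NDUFS6 and NDUFS3. Both sets mixed core and accessory subunits, and matrix with membrane arm. The call of NDUFB11 (0.15, adjusted p = 0.040) was lost without any 1 of the 6 libraries, and that of NDUFS6 (-0.41, adjusted p = 0.021) without any 1 of the 4 siRNA libraries, with adjusted p up to 0.15 and 0.11.

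The assembly factors of complex I, which build the arms but are not part of the finished enzyme, were tested as a list of 17. With medians of -0.044 and -0.11, 2 rose and 1 fell with siLINC01534-1 (17.6% beside 46.3% of all genes), and 1 rose and 1 fell with siLINC01534-2 (11.8% beside 22.8%). NDUFAF2 and NDUFAF3 rose by 0.42 (adjusted p = 0.037) and 0.29 (adjusted p = 0.0029) with siLINC01534-1, and TMEM70, which also assists ATP synthase, fell by 0.43 (adjusted p = 0.0013). The rise of NDUFAF2 was not called without either parent or either siLINC01534-2 library (adjusted p up to 0.15). With siLINC01534-2, FOXRED1 fell by 0.33 (adjusted p = 0.017) and C17orf89, the older symbol of NDUFAF8, rose by 0.27 (adjusted p = 0.021), and both calls were lost without any 1 of the 4 parent and siLINC01534-2 libraries (adjusted p up to 0.091 and 0.11).

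The other complexes of the chain were examined by lists of their nuclear genes. Of 15 ATP synthase genes, 10 fell and none rose with siLINC01534-1, and 8 fell and none rose with siLINC01534-2, with medians of -0.24 and -0.13. Over all genes 24.5% and 11.8% were lower. Without 1 library the numbers that fell were 8 to 10 and 1 to 6. ATP5J, ATP5L and ATP5I, all of its stalk or membrane part, fell by 0.81 (adjusted p = 0.0019), 0.76 (adjusted p = 0.00015) and 0.71 (adjusted p = 0.00022) with siLINC01534-1. With siLINC01534-2 their log2 fold changes were -0.12, -0.095 and -0.057 (adjusted p = 0.43, 0.155 and 0.39). ATP5C1, the rotor shaft, fell most with siLINC01534-2, by 0.50 (adjusted p = 0.0019), and fell by 0.37 (adjusted p = 0.0014) with siLINC01534-1. In complex II, 3 of 4 genes fell with each siRNA. SDHD, a membrane anchor, was at 95.6 and 92.7 FPKM in parent and at 36.03 and 37.4 FPKM with siLINC01534-1, where it fell by 1.33 (adjusted p = 4.7e-05), and at 95.6 and 91.5 FPKM with siLINC01534-2. In complex III, 4 of 9 fell and 1 rose with siLINC01534-1, and 5 fell with siLINC01534-2. CYC1, which is cytochrome c1, fell by 1.17 with siLINC01534-1 (adjusted p = 0.00014). Its log2 fold change with siLINC01534-2 was -0.16 (adjusted p = 0.12). UQCRC2 and UQCRC1 fell most with siLINC01534-2, by 0.35 (adjusted p = 0.0039) and 0.31 (adjusted p = 0.0056). UQCRC1 also fell with siLINC01534-1, by 0.29 (adjusted p = 0.0023), where UQCRC2 was not called (-0.085, adjusted p = 0.11). In complex IV, 2 of 10 fell with each siRNA and none rose, 20% beside 46.3% and 22.8% of all genes called. Without 1 library, the falls with siLINC01534-1 numbered 3 in complex II, 3 to 4 in complex III and 2 to 4 in complex IV, with 0 to 1 rising in complex III. Those with siLINC01534-2 numbered 0 to 2 in complex II, 2 to 4 in complex III and 0 to 2 in complex IV.

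Genes that make iron-sulfur clusters, the redox centres of the matrix arm, were mixed. With siLINC01534-1, 5 of 15 rose and 4 fell, and with siLINC01534-2, 3 fell and none rose, which made 60% and 20% beside 46.3% and 22.8% of all genes. Without 1 library, 3 to 4 rose and 2 to 4 fell with siLINC01534-1, and 0 to 1 fell with siLINC01534-2. LYRM4, a partner of NDUFAB1 in cluster assembly, fell by 0.51 with siLINC01534-1 (adjusted p = 0.0035). In the same comparison ISCA1 rose by 0.30 (adjusted p = 0.0054) and ISCU by 0.29 (adjusted p = 0.0018). Of 10 tested regulators of mitochondrial gene expression, 6 fell and 1 rose with siLINC01534-1, and 1 fell and 1 rose with siLINC01534-2, or 70% and 20% beside the same background. Without 1 library, 4 to 5 fell and 0 to 1 rose with siLINC01534-1, and 0 to 1 fell and 0 to 1 rose with siLINC01534-2. TFAM, which packages and transcribes mitochondrial DNA, was at 18.7 and 17.3 FPKM in parent cells, 8.60 and 7.85 with siLINC01534-1, and 17.04 and 17.7 with siLINC01534-2. It fell by 1.04 with siLINC01534-1 (adjusted p = 0.00022). YY1 fell by 0.51 (adjusted p = 0.00039) with the same siRNA. PPARGC1B was at 3.935 FPKM in both parent libraries, 2.648 and 2.668 with siLINC01534-1, and 2.924 and 2.879 with siLINC01534-2. It fell by 0.43 (adjusted p = 0.0061) with siLINC01534-1 and by 0.34 (adjusted p = 0.028) with siLINC01534-2. The second of these calls was lost with no filter on low values and with a replicate block. GABPA, the DNA-binding part of GABP, fell by 0.18 (adjusted p = 0.028) with siLINC01534-1 and rose by 0.27 (adjusted p = 0.017) with siLINC01534-2. The fall was not called without either parent or either siLINC01534-1 library. The rise was lost without any 1 of the 4 parent and siLINC01534-2 libraries.

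**Figure D4:**
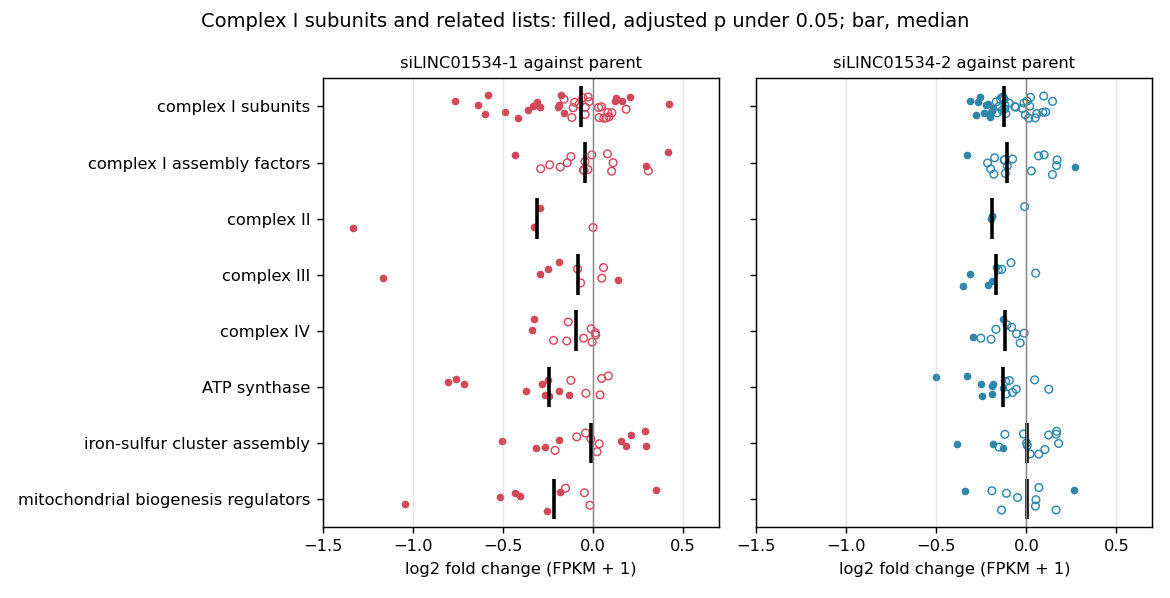
Log2 fold change of FPKM + 1 against parent for complex I subunits and 7 related lists, 1 point per tested gene, filled where the adjusted p was under 0.05 (limma), with a black bar at each list's median; points are spread vertically for legibility only. ATP synthase had 10 and 8 filled points to the left of 0 and none to the right, while the 2 leftmost points with siLINC01534-1 were SDHD and CYC1.

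The members share features that bear on their measurement. On GRCh37 with GENCODE annotation they lie on 18 chromosomes, with 6 on chromosome 19, and their canonical transcripts have a median length of 693.5 nt beside 3248 nt over the tested genes with a match, at a similar GC content (48.9% and 48.8%). In all, 19 members have at least 1 named pseudogene copy, 57 copies together. Exons of 2 members overlap another gene on the same strand (NDUFC2 with NDUFC2-KCTD14, NDUFS1 with GCSHP3), and those of 5 overlap a gene on the opposite strand (NDUFA2, NDUFA3, NDUFB2, NDUFB6 and NDUFC2). The strand setting of the authors' counting is not given in the sources used here, so reads of such pairs may be shared.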

How the data were processed

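HCT116 RNA was sequenced in 6 libraries (75-nt single-end, TruSeq stranded mRNA). The authors mapped reads to hg19 with TopHat2 2.0.13, Bowtie2 2.2.3 and SAMtools 0.1.19 and deposited FPKM from Cuffnorm (Cufflinks 2.2.1); the annotation is not given in the sources used here. The methods state triplicate cultures and another RNA kit than the labels, which list 2 libraries per group. Groups come from the labels; no library was left out.

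A mean FPKM of 1 or more across libraries was required for testing. Tests ran on log2(FPKM + 1) with limma 3.58.1 in R 4.3.3 (eBayes with trend, 1 mean per group), two-sided, Benjamini-Hochberg over 12203 genes, threshold 0.05. Fold changes are on that scale and understate changes of low genes. The members and lists were chosen with earlier results of these data known. Full values were given for the core subunits, NDUFAB1, NDUFA4 and, per comparison, the 5 called members of largest change whose groups did not overlap. Up to 3 called genes were chosen per related list and comparison, some with their result in the other comparison. Other called members were named to account for the rest; 1 member enters the counts but is not reported here by name. Alternatives varied the pseudocount, filter, scaling, block, groups fitted, variance prior and libraries. The fit was tested on simulated data.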

Additional observations from a re-analysis of the deposited data

Results flagged for a closer look

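For 18 members the effects of the 2 siRNAs differed when the difference itself was tested (limma, adjusted p under 0.05 over all 12203 genes). Of these, 17 are given here. On the log2 scale, siLINC01534-1 minus siLINC01534-2, the accessory subunits of the membrane arm were at -0.61 for NDUFB6, -0.51 for NDUFC1, -0.43 for NDUFB10, -0.43 for NDUFB7, -0.42 for NDUFA13, 0.36 for NDUFB4, 0.27 for NDUFB5, 0.26 for NDUFA10, 0.20 for NDUFB9 and 0.15 for NDUFB11. Core subunits were at -0.45 for NDUFV2, 0.37 for NDUFV1, 0.24 for NDUFS1 and -0.18 for NDUFS3. NDUFS6, an accessory subunit of the matrix arm, was at -0.41, NDUFAB1 at -0.41 and NDUFA4 at 0.52. The background share of genes called in this comparison was 41.8%.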

How the results depend on the processing

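Over 14 alternatives per comparison, the directions of the members named by rule mostly stayed. Of 588 such results 512 kept direction and side of the threshold. These include results past it in neither fit, so their number does not show how many calls held. The 68 that kept direction but missed the threshold were all calls of the main fit, and 5 newly passed it. The other 3 changed sign and were past the threshold in neither fit: leaving out 1 library, NDUFC1 with siLINC01534-2 ranged from -0.0094 (without parent replicate 2) to 0.054, and NDUFS8 between the siRNAs from -0.037 (without siLINC01534-2 replicate 2; -0.019 without siLINC01534-1 replicate 1) to 0.12. With siLINC01534-1, 8 members fell with no filter on low values, which tests 19025 genes, and 9 fell when only the 2 groups compared were fitted; leaving out 1 library gave 8 to 10 lower, 1 to 4 higher and medians of -0.12 to -0.052. With siLINC01534-2, leaving out 1 library gave medians of -0.17 to -0.078. Between the siRNAs it gave medians of -0.049 to 0.056, the lowest without siLINC01534-2 replicate 2 against 0.041 with all libraries. Where a library is left out, the lone library of its group is assumed to vary like the others, and fewer samples enter. The cause of the other changes was not tested. Another pseudocount moved no count. With siLINC01534-1, 12 of the 38 members were called with no filter on low values, beside 27.3% of all genes tested. With only the 2 groups compared, 13 members were called, beside 42.9%.

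Replicate numbers did not pair the samples: deviations of same-numbered libraries correlated at 0.11, 0.027 and -0.046. With a replicate block, 3 members rose with siLINC01534-1, and 13, 8 and 17 of the 38 members were called in the 3 comparisons. Of all genes tested, 41.9%, 16.3% and 36.4% were called with that block. With 2 libraries a group, an exact permutation test could not go below 0.333, and members with an SE near 0.10, such as NDUFA3, allow no statement on changes smaller than their intervals.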
